A study of Mus musculus with 6 samples.

Results

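The cytosolic ribosomal protein genes are the subject here, examined in the RNA of microglia-enriched cells from mice with and without the cannabinoid receptor 1 gene *Cnr1*. Members were the protein-coding rows of the deposited gene table whose symbol starts with Rpl or Rps followed by a digit, or is Rplp0, Rplp1, Rplp2, Rpsa or Fau, without the Rps6k kinase genes. The rule took 90 of the 19225 listed genes, of which 54 belonged to the large subunit and 36 to the small subunit by their symbols, and they lay on 20 chromosomes. One of the small subunit symbols, Rps19bp1, names a protein that binds a ribosomal protein and is not itself a subunit of the ribosome, and it was kept because the rule takes it.

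The cytosolic ribosome translates all nuclear mRNA and is built from a small subunit, which reads the mRNA, and a large subunit, which joins amino acids and passes the chain out through an exit tunnel. Nearly every ribosomal protein is needed once per ribosome, so cells make these proteins in matched amounts, and their mRNAs commonly start with a stretch of pyrimidines (the 5′ terminal oligopyrimidine, or TOP, tract) through which the mTOR pathway and Larp1 control their translation. Ribosomal protein genes are short and abundantly transcribed, and the genome carries many reverse-transcribed copies of them, which matters when short reads are assigned to genes.

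The 3 control libraries came from *Cnr1*+/+ mice, labelled as strain C57BL6/J, and 3 libraries came from *Cnr1*-/- mice of the *Cnr1* tm1Zim strain, in which the receptor's coding region is disrupted in all cells, 1 library per male mouse. The study describes its *Cnr1*+/+ and *Cnr1*-/- mice as littermates, from a line backcrossed to C57BL/6J. The labels give an age of 3 months and the study's methods give a younger one in weeks, and the animals were not stressed. Brain cells without the cerebellum were freed of myelin and enriched for CD11b, a surface protein of microglia and other myeloid cells, on magnetic beads, and libraries were made from the 3′ ends of polyadenylated RNA, so that a value does not grow with transcript length. Values are reads relative to the library total (cpm), scaled between libraries by the authors. As the labels say nothing further on how replicates were taken, p-values measure the spread between these 6 libraries.

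Depth lay between 7708793 and 10723861 effective reads per library, at which a count of 0 allows up to 0.280 to 0.389 cpm (3 reads, counting error only). The 8 microglial markers summed to between 13798 and 15944 cpm, and none was at 0 in all libraries. The second *Cnr1*-/- library stood apart in the 8 neutrophil markers, at 4056 cpm against 266 to 523 cpm in the other 5, and in the 5 erythrocyte markers, at 2330 cpm against 136 to 237 cpm. *Cnr1* itself was listed at 0 in all 3 *Cnr1*+/+ libraries and at 1.41, 1.21 and 1.79 cpm in the *Cnr1*-/- libraries, which goes against the labels at face value. Reads from the 3′ end need not lie in the disrupted coding region and so do not check the knockout. This concerns the reads in *Cnr1*-/- libraries only, and why all 3 *Cnr1*+/+ libraries list 0 was not tested. Directions below refer to the libraries labelled *Cnr1*-/- and *Cnr1*+/+. In bulk RNA, fewer cells of a type and less RNA per cell cannot be told apart.

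Together the 90 genes held a similar part of the RNA in both genotypes. Their summed level was 13363, 12480 and 14813 cpm in the *Cnr1*+/+ libraries and 13193, 15064 and 13623 cpm in the *Cnr1*-/- libraries. The groups overlapped, with the second *Cnr1*-/- and the third *Cnr1*+/+ library highest and the second *Cnr1*+/+ library lowest. The means were 13552 ± 1178 cpm (SD, n = 3) and 13960 ± 980 cpm (SD, n = 3). As a share of the scaled total the genes took between 1.25% and 1.51% per library. As a share of the cpm of the listed genes they took 2.67%, 2.31% and 2.73% in the *Cnr1*+/+ and 2.47%, 2.55% and 2.34% in the *Cnr1*-/- libraries, where the first and the third *Cnr1*+/+ library were highest. The ratio of the *Cnr1*-/- to the *Cnr1*+/+ mean was 1.03 on the first scale and 0.955 on the second.

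The subunits kept their proportion in every library. Large subunit genes summed to between 6961 and 8290 cpm and small subunit genes to between 5519 and 6773 cpm. The ratio of the large to the small sum was 1.24, 1.26 and 1.24 in the *Cnr1*+/+ libraries and 1.26, 1.22 and 1.26 in the *Cnr1*-/- libraries. Its mean was 1.25 ± 0.0133 (SD, n = 3) and 1.25 ± 0.0207 (SD, n = 3), while the sums themselves differed up to 1.19-fold (large) and 1.23-fold (small) between libraries. No test was made of these sums.

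Most members moved together from library to library. To show this, log2(cpm + 0.1) of each of the 84 members with a mean of at least 10 cpm was set against its own mean over the 6 libraries. In the second *Cnr1*+/+ library only 6 of the 84 lay above their own mean, whereas 73 did in the third. In the *Cnr1*-/- libraries 23, 79 and 42 did, in the order of their replicate numbers. The median deviation of the large subunit genes was -0.03, -0.12 and 0.10 in the *Cnr1*+/+ and -0.04, 0.13 and 0.02 in the *Cnr1*-/- libraries. Small subunit genes had medians of -0.03, -0.14 and 0.13, and of -0.09, 0.15 and -0.02. Both subunits were thus lowest in the second *Cnr1*+/+ library and highest in the second *Cnr1*-/- library. All 6659 tested genes had medians of -0.13, -0.03 and 0.06, and of -0.03, 0.13 and 0.03. The second *Cnr1*-/- library is the one with the neutrophil and erythrocyte transcripts, and their part in its high ribosomal protein cpm, which was not the highest as a share of the listed genes, was not tested.

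**Figure D1:**
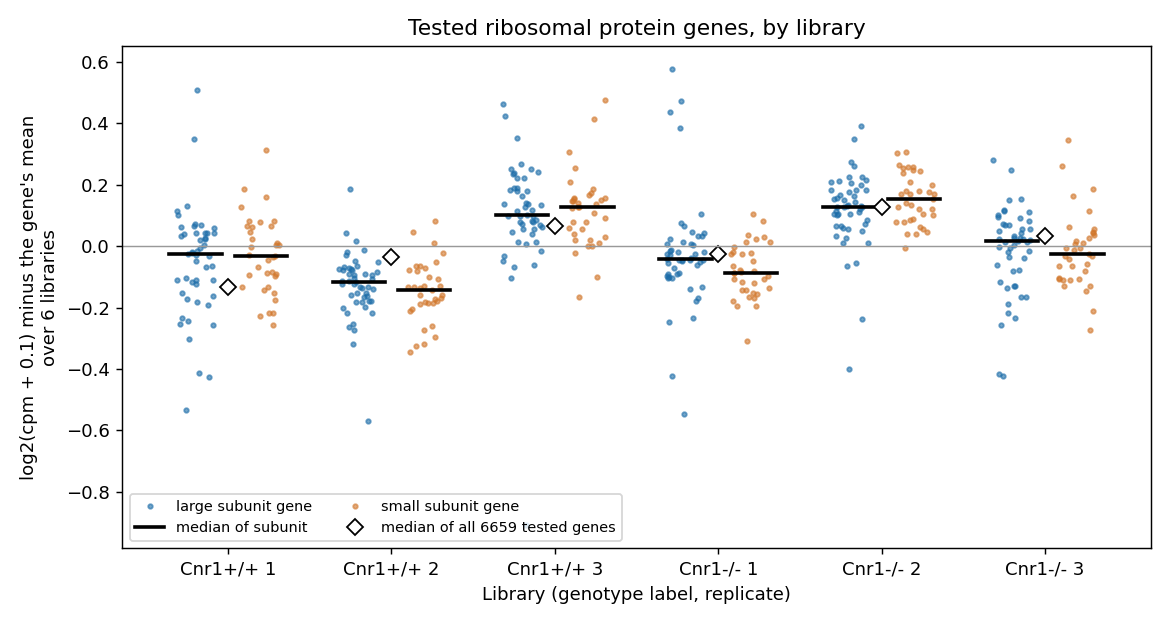
Each point is 1 of 84 tested ribosomal protein genes (49 large, blue; 35 small, orange), plotted for each library on the x axis as log2(cpm + 0.1) minus the gene's mean over the 6 libraries; black bars are subunit medians and diamonds the median of all 6659 tested genes. Both subunits shift together, down in the second Cnr1+/+ library (medians -0.12 and -0.14) and up in the second Cnr1-/- library (0.13 and 0.15).

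The median correlation between 2 members over the 6 libraries was 0.54, with 0.48 among large, 0.59 among small and 0.55 between large and small subunit genes. Among the 48 tested mitochondrial ribosomal protein genes, which serve a separate ribosome and had a median level of 13.8 cpm, it was 0.19. These correlations rest on 6 points that share library and scaling, and low levels weaken them, so they are a description.

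Levels of single rows ran over more than 3 orders of magnitude, with the lowest in rows whose reads are shared with copies, described below, and in the tissue-restricted Rpl3l and Rpl39l. The most abundant small subunit genes by their own rows were Rps29, Rps9, Rps23, Rps3a1 and Rps27rt. Rps29, a zinc-binding protein of the small subunit's head, had 675, 679 and 813 cpm in *Cnr1*+/+ and 757, 800 and 760 cpm in *Cnr1*-/- libraries. Rps9 had 557, 466 and 532 cpm against 523, 601 and 520 cpm. Rps23, at the decoding centre, had 378, 327 and 408 cpm against 364, 382 and 340 cpm. In all 3 the genotypes overlapped. Rps3a1 averaged 272 ± 27.2 and 280 ± 27.9 cpm (SD, n = 3 each), and Rps27rt, a reverse-transcribed copy of Rps27, 255 ± 25.6 and 281 ± 23.6 cpm (SD, n = 3 each).

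The most abundant large subunit genes by their own rows were Rplp1, Rpl27a, Rpl10-ps3, Rpl26 and Rplp2. Rplp1, an acidic protein of the stalk that recruits translation factors, had 709, 635 and 789 cpm in *Cnr1*+/+ and 649, 702 and 709 cpm in *Cnr1*-/- libraries. Its stalk partner Rplp2 had 282, 295 and 344 cpm against 294, 335 and 333 cpm. Rplp0, the base of the stalk, had 205, 199 and 217 cpm against 195, 229 and 212 cpm. The levels of all 3 stalk genes overlapped between genotypes. Rpl27a averaged 385 ± 29.9 and 411 ± 32.9 cpm, Rpl10-ps3, a copy of Rpl10 that the annotation lists as protein-coding, 374 ± 46.3 and 380 ± 24.8 cpm, and Rpl26, which lines the exit tunnel, 318 ± 24.0 and 324 ± 20.7 cpm (SD, n = 3 each).

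The median member had 120 cpm, with 111 cpm for large and 130 cpm for small subunit genes, and the 5 most abundant genes of a subunit held 27.6% of the large and 35.8% of the small sum. The order of the members by level was almost the same in every library, with Spearman coefficients between 0.979 and 0.991 over the 90 genes for any 2 libraries. The members that stayed below the mean of 10 cpm and were not tested were 6, namely Rps27, Rpl36a, Rpl35, Rpl10, Rpl39l and Rpl3l. Rpl3l, the muscle form of Rpl3, was listed at 0, 0.200 and 0.841 cpm in *Cnr1*+/+ and 0, 0.466 and 0 cpm in *Cnr1*-/- libraries. Rpl39l, a germline paralogue of Rpl39, was listed at 0, 0 and 0.841 cpm against 0.325, 1.87 and 0.119 cpm. No member was at 0 in all 6 libraries.

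**Figure D2:**
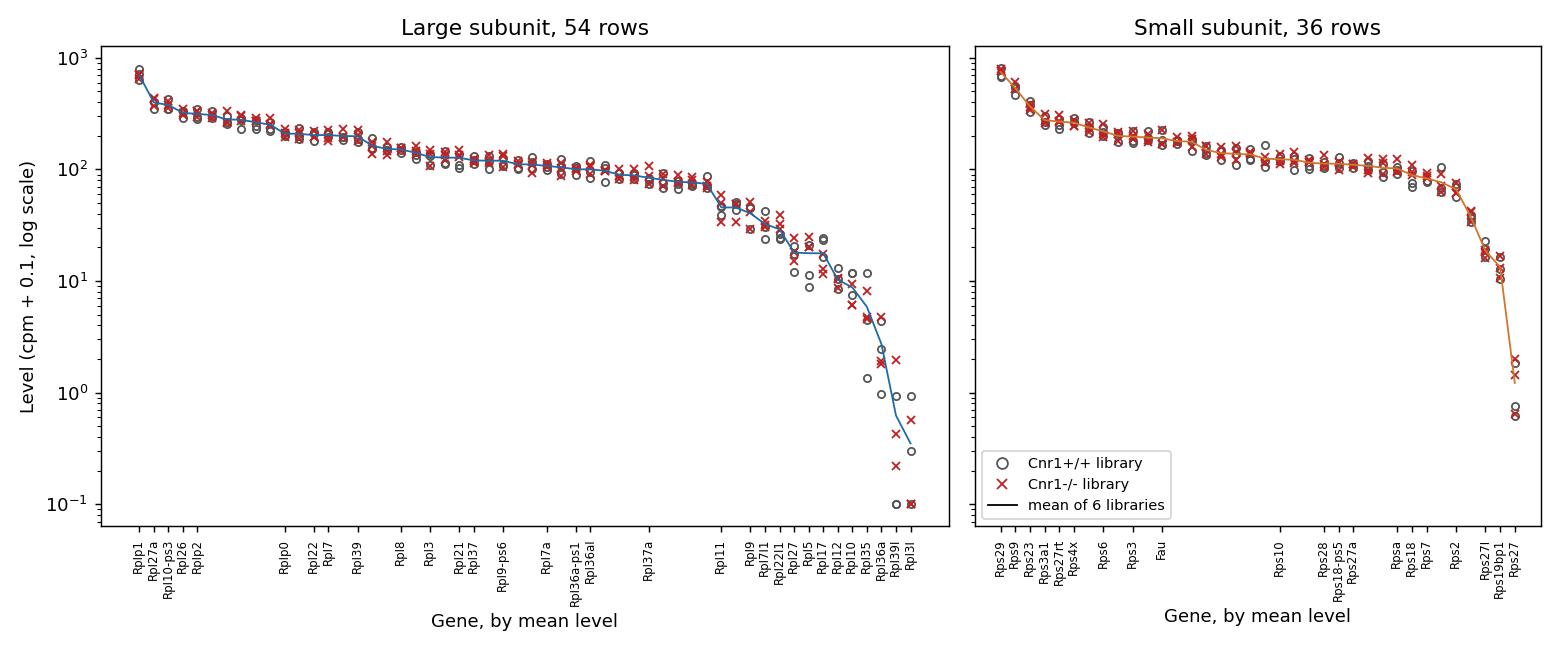
Level of each of the 90 genes (cpm + 0.1, log axis) in the 3 Cnr1+/+ (grey circles) and 3 Cnr1-/- libraries (red crosses), by subunit and in order of the mean (line). Rplp1 and Rps29 lead, most genes lie near 100 cpm, and Rpl3l, Rpl39l and Rps27 end the order; only genes named in the text carry a label.

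The starts of the genes show a feature that the choice by symbol did not use. RefSeq promoter windows (GRCm38.p6, 250 bases before to 50 after the start) were found for 66 of the 90 members, 78 windows in all, and compared with all 32851 windows of the table. A first transcribed C that opens an unbroken run of at least 5 C or T bases stood in 15 of the 78 windows (19.2%), against 2.51% of all windows and 0 of the 75 windows of mitochondrial ribosomal protein genes. A run of at least 8 C or T bases within 20 bases of the start stood in 41.0% of member windows and 16.05% of all. The following windows run from 10 bases before to 20 bases after the annotated start on the gene's strand, and their longest C/T run is in capitals. The first 5 carry a run across the start and the last 2 belong to genes described below for their genotype difference.
Rps6 (chr4:86857348-86857377, minus strand): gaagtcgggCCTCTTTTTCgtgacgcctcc
Fau (chr19:6057937-6057966, plus strand): gcccccaCTTCTTCCTCTTTCTTgactcca
Rplp2 (chr7:141447641-141447670, plus strand): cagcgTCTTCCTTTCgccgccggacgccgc
Rpl35 (chr2:39005112-39005141, minus strand): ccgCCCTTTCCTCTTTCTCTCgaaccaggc
Rps10 (chr17:27635225-27635254, minus strand): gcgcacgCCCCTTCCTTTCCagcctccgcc
Rpl22l1 (chr3:28805498-28805527, plus strand): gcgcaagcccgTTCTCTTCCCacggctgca
Rpl5 (chr5:107900518-107900547, plus strand): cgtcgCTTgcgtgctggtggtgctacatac
In Fau the run held 16 bases, in Rpl35 18, in Rps10 13, in Rps6 and Rplp2 10 each. Rpl22l1 carried a run of 10 bases that began at base 2, counted from 1 at the annotated start, and so was not counted as opening there, and the longest run in the printed Rpl5 window held 3 bases, while a run of 9 bases lay farther upstream, within 20 bases of the start, and counts among the 41.0%. Annotated starts can lie some bases from the start a cell uses, so an absent run says only that it is not in this window.

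Within the full 300-base windows, CTTTCC on the gene's strand stood in 38.5% of member and 14.1% of all windows, and it overlaps the C/T runs by its letters. CCGGAAG, the core bound by ETS factors such as Gabpa, stood on either strand in 34.6% of member, 34.7% of mitochondrial ribosomal protein and 8.86% of all windows. AAGATGG, the core of the Yy1 motif, stood on either strand in 16.7% of member, 17.3% of mitochondrial ribosomal protein and 6.34% of all windows. TATAAA stood on either strand in 8.97% and 13.6%. CTTTCC was in 47.8% of large and 25.0% of small subunit windows, and CCGGAAG in 32.6% and 37.5%. These matches describe letters only.

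Much of the ribosomal protein signal stood on rows of near-identical copies. For 89 of the 90 members a transcript was compared by sequence with those of the 18870 listed genes that had one. A listed gene that matched it at 95% identity or more was taken as its copy. The member without a transcript, Rps18-ps5, was not compared and stood as a family of its own. Of the 86 families, 75 held at least 1 copy, and 359 rows that are not members, nearly all processed pseudogenes, were copies. Per library the copies together carried between 7204 and 8903 cpm. For 24 families the members held under 50% of the family's cpm. The authors counted reads with an expectation-maximisation algorithm, which divides reads among matching transcripts, so a member's own value and those of its copies cannot be separated with certainty.

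Rps27, a zinc-binding small subunit protein, is the clearest case. Its row held 1.76, 0.660 and 0.514 cpm in *Cnr1*+/+ and 0.550, 1.34 and 1.90 cpm in *Cnr1*-/- libraries, or at most 0.705% of its family. Its copy Rps27rt (chr9:114982366-114982739, minus strand), identical to the Rps27 transcript over 341 bases, held 250, 231 and 282 cpm against 270, 308 and 266 cpm. Rps27 itself lies at chr3:90212522-90213651 on the minus strand. The windows around both annotated starts share 19 bases, shown in capitals, and differ upstream of them.
Rps27 (chr3:90213629-90213658, minus strand): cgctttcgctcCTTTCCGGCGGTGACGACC
Rps27rt (chr9:114982720-114982749, minus strand): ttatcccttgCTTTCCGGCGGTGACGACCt
The shared bases begin at the annotated start of Rps27rt and at the base after the annotated start of Rps27.

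Other members had the same imbalance. The row of Rpl10, one of the last proteins to join the large subunit, held 2.15% of its family, whose highest row was Rpl10-ps3. Rpl36a held 1.41%, Rpl35 2.89%, Rpl5 5.06%, Rpl12 6.04%, Rpl17 7.54% and Rpl27 10.1% of their families. Rpl12, a protein at the base of the stalk, had 8.42, 10.4 and 12.9 cpm in *Cnr1*+/+ and 10.6, 8.55 and 10.3 cpm in *Cnr1*-/- libraries, while its copy Gm10275 averaged 157 cpm. Low rows of this kind cannot be read as little mRNA of the gene. At the other end, Rps29, Rpl8, Rpl39 and Rpl37a had no copy among the listed genes.

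**Figure D3:**
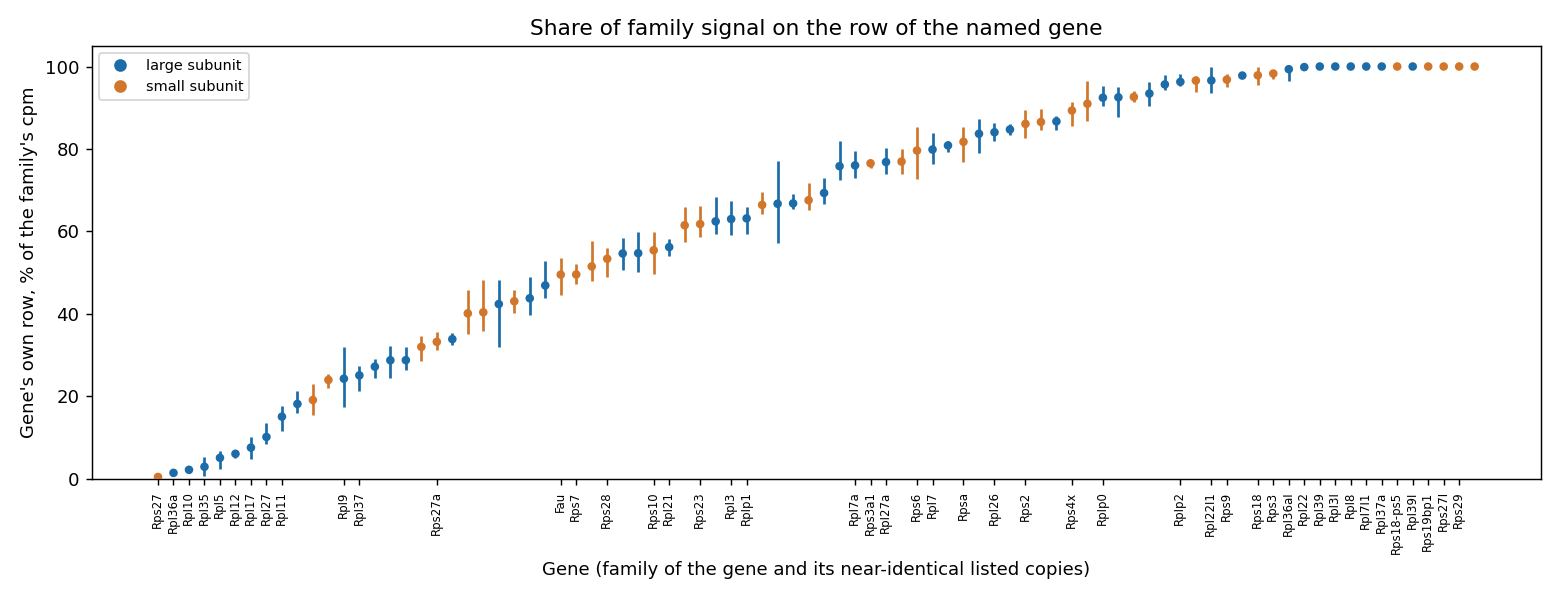
For each of 86 families, the share of the family's cpm on the row of the named gene (percent): points are shares of the mean over 6 libraries, lines run from the lowest to the highest library, blue is large and orange small subunit. Rps27, Rpl36a, Rpl10 and Rpl35 lie below 3% and Rps29 and Rpl8 at 100%; only genes named in the text carry a label.

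Summed with their copies, the families ran from 77.1 cpm (Rps2) to 1107 cpm (Rplp1) on average, apart from the lower Rpl7l1, Rpl22l1, Rps27l, Rps19bp1, Rpl39l and Rpl3l. The order by family differed from that by row, with Rps23 (593 cpm) above Rps9 (551 cpm) and Rpl37 (480 cpm) above the Rpl10 family (403 cpm) that holds Rpl10-ps3. Together the families held between 19683 and 23967 cpm per library, and the ratio of large to small subunit families was between 1.38 and 1.44. The copies' share of the family total was 36.1%, 36.6% and 36.3% in the *Cnr1*+/+ libraries and 38.1%, 37.1% and 37.2% in the *Cnr1*-/- libraries. All 3 *Cnr1*-/- values lay above all 3 *Cnr1*+/+ values, by 1.13 percentage points on average, and the two-sided exact permutation test gave p = 0.1, the smallest that 3 against 3 libraries allow. With copies taken at 90% identity the shares averaged 37.1% ± 0.295 and 38.2% ± 0.621 (SD, n = 3 each; exact permutation p = 0.1). This comparison was chosen after its values were seen.

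Of the 75 families with a copy, the own row's share was lower in every *Cnr1*-/- than in every *Cnr1*+/+ library in 6 and higher in 1, which was Rps7 (48.750%, 48.3% and 47.3% against 48.752%, 52.2% and 51.8%). Among the lower ones, the row of Rplp1 held 65.2%, 64.7% and 65.9% of its family in *Cnr1*+/+ and 59.4%, 61.2% and 62.6% in *Cnr1*-/- libraries. Its copy Gm10073 had 373, 342 and 407 cpm against 440, 443 and 419 cpm. The family sum overlapped between genotypes, at 1088, 980 and 1198 cpm against 1093, 1148 and 1133 cpm. Rpl37 held 27.1%, 27.3% and 26.8% of its family against 23.8%, 21.3% and 25.1%, and its copy Rpl37rt averaged 328 ± 30.5 and 391 ± 29.3 cpm (SD, n = 3 each). These genes were picked for this on seeing the data, and no test of the shares and no such count over other genes was made, so nothing is read from the 6 and 1. Rps18 was counted here without Rps18-ps5, which had no transcript to compare. That row made up 60.3%, 59.7% and 57.1% of its pair with Rps18 in *Cnr1*+/+ and 50.9%, 51.6% and 56.6% in *Cnr1*-/- libraries. The share of Rps18 in this pair was thus also higher in every *Cnr1*-/- library.

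The genotype comparison asked whether microglia-enriched cells lacking *Cnr1* differ in ribosomal protein mRNA under resting conditions. With limma on log2(cpm + 0.1), 3 of the 84 tested members passed a nominal p of 0.05, against 6.02% of all 6659 tested genes. Rpl5 and Rpl22l1 were higher and Rpl17 was lower in *Cnr1*-/- libraries, where 5.09% of all tested genes were higher and 0.931% lower at the same threshold. No member passed an adjusted p of 0.1, the lowest being 0.655 for Rpl5 (limma, Benjamini-Hochberg over all 6659 genes). With 1 library left out at a time, Rpl5 passed the nominal threshold in 5 of 6 fits, Rpl17 in 3 and Rpl22l1 in 4, and without the first *Cnr1*-/- library only Rpl5 passed. Rpl5 missed it without the third *Cnr1*+/+ library (log2 fold change 0.49) and had a limma adjusted p of 0.0595 without the first (1.12). Rpl17 missed it without the first library of either genotype and without the third *Cnr1*+/+ library, with log2 fold changes from -0.49 to -0.54. The share of members past the nominal threshold, 3.57%, was thus no larger than the background.

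The median log2 fold change over the 84 members was 0.04, with 0.04 for the 49 large and 0.04 for the 35 small subunit genes, beside 0.08 over all tested genes. When each library was centred on its median, quantile-normalised or scaled to equal totals without mitochondrially encoded genes, the members' median turned to between -0.04 and -0.06, while all tested genes moved to between -0.02 and 0.01. The 95% interval of the fold change lay inside 1.5-fold in both directions for 79 of the 84 members (94.0%), against 56.4% of all tested genes. All 35 small subunit genes were among the 79. These shares are not at a like level. The tested members had a median level of 124 cpm and a median SE of 0.131, beside 26.0 cpm and 0.196 over all tested genes. The 5 members with wider intervals were Rpl5, Rpl17, Rpl22l1, Rpl27 and Rpl12, which have mean levels of at most 29.0 cpm. Only 2 members, Rpl22l1 and Rps7, had groups that did not overlap, both higher in *Cnr1*-/- libraries (2.38%), against 8.85% of all tested genes.

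**Figure D4:**
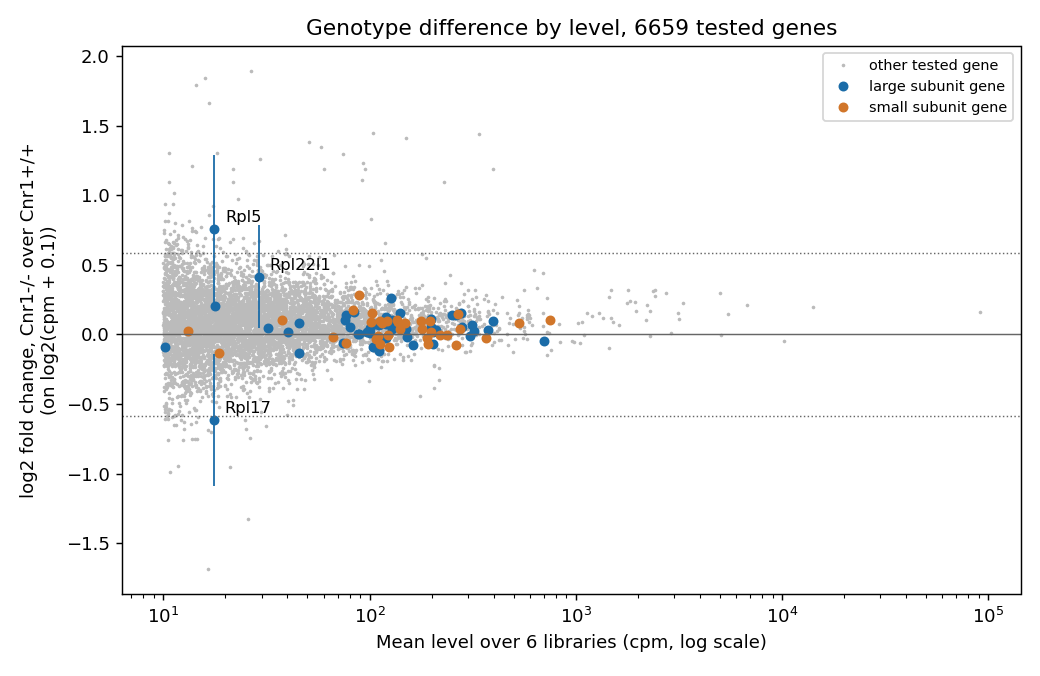
log2 fold change of Cnr1-/- over Cnr1+/+ libraries against mean level (cpm, log axis) for 6659 tested genes (grey) with the 49 large (blue) and 35 small subunit genes (orange); vertical bars are 95% intervals of the 3 genes past the nominal threshold and dotted lines mark 1.5-fold. Members above 50 cpm stay between -0.12 and 0.28, and Rpl5 (0.75) and Rpl17 (-0.62) stand out among the low ones.

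Rpl5 carries the 5S ribosomal RNA into the large subunit together with Rpl11, and outside the ribosome this particle can bind Mdm2 and raise p53. Rpl5 (chr5:107900502-107909005, plus strand) had 21.1, 11.1 and 8.77 cpm in *Cnr1*+/+ and 24.8, 20.04 and 20.1 cpm in *Cnr1*-/- libraries. The first *Cnr1*+/+ library reached the *Cnr1*-/- values, so the groups overlapped. The log2 fold change was 0.75 ± 0.26 (SE; limma p = 0.00762, adjusted p = 0.655), and the exact permutation test gave p = 0.3. Its row held between 2.32% and 6.75% of its family per library. Most of the rest stood on Gm15500 (chr7:114705217-114706235, minus strand), a transcribed processed pseudogene identical to Rpl5 over 1018 bases, with 306, 309 and 367 cpm against 339, 356 and 294 cpm. The family as a whole had 330, 322 and 378 cpm in *Cnr1*+/+ and 367, 378 and 316 cpm in *Cnr1*-/- libraries. This sum overlapped between genotypes and its log2 fold change was 0.04 ± 0.12 (SE; limma adjusted p = 0.979). Its partner Rpl11 had 46.8, 38.6 and 46.1 cpm against 33.4, 58.9 and 49.8 cpm, which overlapped. The Rpl11 row held 15.05% of its family, whose sum was 310, 273 and 330 cpm against 288, 334 and 283 cpm, also with overlap.

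Rpl17, a large subunit protein next to the exit of the peptide tunnel, had 24.2, 16.4 and 23.4 cpm in *Cnr1*+/+ and 11.6, 12.8 and 17.3 cpm in *Cnr1*-/- libraries. The third *Cnr1*-/- library lay above the second *Cnr1*+/+ library. The log2 fold change was -0.62 ± 0.23 (SE; limma adjusted p = 0.744; exact permutation p = 0.2). Most of its family stood on Rpl17-ps8, which matched it at 99.7% identity, with 205, 166 and 199 cpm against 184, 234 and 185 cpm. Summed over the family the values were 237, 206 and 250 cpm against 217, 275 and 217 cpm, and the log2 fold change was 0.03 ± 0.13 (SE; limma adjusted p = 0.986). For both Rpl5 and Rpl17 the nominal threshold was passed on a row with under 11% of the family's signal in every library and was not passed by the sum.

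Rpl22l1 is a paralogue of Rpl22 with a distinct sequence, and both proteins bind RNA. Rpl22l1 (chr3:28805436-28807424, plus strand) had 24.1, 23.6 and 26.5 cpm in *Cnr1*+/+ and 38.6, 32.0 and 28.9 cpm in *Cnr1*-/- libraries. Every *Cnr1*-/- library lay above every *Cnr1*+/+ library. The log2 fold change was 0.41 ± 0.18 (SE; limma p = 0.0297, adjusted p = 0.809), and the exact permutation test gave its smallest value, p = 0.1. Its own row held 96.6% of its family, whose sum was 25.3, 24.2 and 28.3 cpm against 40.5, 32.6 and 28.9 cpm (log2 fold change 0.38 ± 0.18, SE; limma adjusted p = 0.83). Under the 4 alternative scalings that centre or rescale the libraries and under quantile normalisation the difference kept its direction, with log2 fold changes from 0.31 to 0.34, and missed the nominal threshold. Without the first *Cnr1*-/- library it was 0.30, and it missed the nominal threshold there and without the second *Cnr1*+/+ library too. The parent Rpl22 had 208, 180 and 217 cpm against 195, 220 and 197 cpm (log2 fold change 0.02, limma adjusted p = 0.992). Rpl22l1 therefore made up 10.4%, 11.6% and 10.9% of the pair's signal in *Cnr1*+/+ and 16.6%, 12.7% and 12.8% in *Cnr1*-/- libraries.

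**Figure D5:**
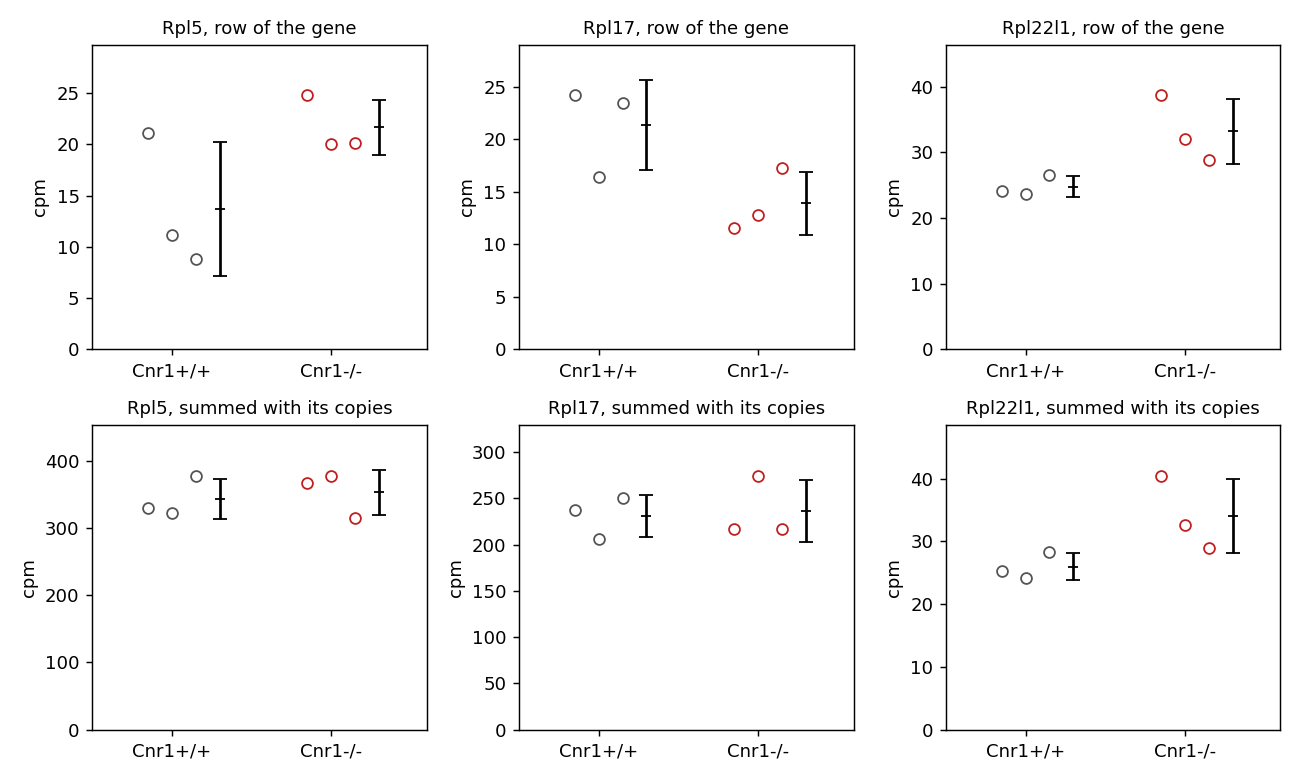
Level (cpm, axes from 0) of Rpl5, Rpl17 and Rpl22l1 in each library: the gene's own row (top) and the sum with its near-identical copies (bottom); circles are libraries and bars mean ± SD of 3. The Rpl5 and Rpl17 rows separate partly by genotype and their sums overlap (322 to 378 against 316 to 378 cpm for Rpl5), whereas Rpl22l1 looks alike in both.

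Rps7 was the other member without overlap and is named for that after its values were seen. It had 77.9, 78.7 and 77.2 cpm in *Cnr1*+/+ and 87.6, 93.1 and 83.2 cpm in *Cnr1*-/- libraries (log2 fold change 0.17 ± 0.13, SE; limma adjusted p = 0.9). With its copies it had 160, 163 and 163 cpm against 180, 178 and 161 cpm, which overlapped.

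When every member was summed with its copies and the whole table was fitted again, 2 of 84 families tested passed the nominal p of 0.05, both higher, against 5.92% of all 6569 features and 5.04% higher. Rps18-ps5, which had no transcript to compare, stood as a family of its own and is not in the Rps18 sum. The 2 families were Rpl22l1 and Rpl21. With copies taken at 90% identity only Rpl22l1 passed, and with 1 library left out at a time Rpl21 passed without the third *Cnr1*+/+ or the first *Cnr1*-/- library only, in 2 of 6 fits, and Rpl22l1 without the third library of either genotype only, also in 2 of 6. The Rpl21 family had 184, 193 and 235 cpm in *Cnr1*+/+ and 239, 246 and 258 cpm in *Cnr1*-/- libraries, spread over 37 copies beside the Rpl21 row. Its log2 fold change was 0.29 ± 0.12 (SE; limma adjusted p = 0.802). The row of Rpl21 alone had 102, 109 and 136 cpm against 129, 135 and 149 cpm, with overlap (log2 fold change 0.26, limma adjusted p = 0.829; from 0.17 to 0.38 with 1 library left out, past the nominal threshold without the third *Cnr1*+/+ library only). Without the second library of either genotype no family passed the nominal threshold in limma. Without the third *Cnr1*+/+ library 5 did, namely Rpl21, Rpl22l1, Rpl27, Rpl37 and Rps18, the last without Rps18-ps5 in its sum. Of the families tested 5 did not overlap between genotypes, all higher in *Cnr1*-/- libraries, against 8.80% of all features, namely Rpl21, Rpl22l1, Rpl37, Rps28 and Rpl7a. The median over the families was 0.06, and 82 of the 84 had a 95% interval inside 1.5-fold.

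Members were also grouped by their place in the ribosome, and counts are to be read beside the 6.02% of all tested genes past the nominal threshold. Of the 4 stalk genes Rplp0, Rplp1, Rplp2 and Rpl12, 2 were above and 2 below 0, from -0.09 to 0.07 on the log2 scale, and none passed the test. Of 7 tested genes that line or surround the exit tunnel, 1 (Rpl17) passed (14.3%), and 6 had values above 0. Rps2, Rps3 and Fau at the mRNA entry lay between -0.03 and 0.09. Fau, whose product is cut from a ubiquitin-like protein, had 183, 167 and 224 cpm against 169, 225 and 170 cpm. Rps27a, made as a fusion with ubiquitin, had 115, 104 and 112 cpm against 111, 113 and 105 cpm. Its log2 values had the smallest SD of all tested members over the 6 libraries, 0.06, beside a median of 0.16 for 650 other genes of similar level.

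Rps6, the small subunit protein that S6 kinases phosphorylate, had 218, 197 and 241 cpm in *Cnr1*+/+ and 194, 257 and 206 cpm in *Cnr1*-/- libraries (log2 fold change -0.01, limma adjusted p = 0.995). Rpsa, also known as the laminin receptor, had 99.3, 89.9 and 106 cpm against 93.9, 125 and 97.2 cpm (log2 fold change 0.09, limma adjusted p = 0.954). Neither separated the genotypes. Of 16 tested genes mutated in Diamond-Blackfan anaemia, an inherited failure of red cell production, 1 passed, namely Rpl5 (6.25%, beside 6.02% of all tested genes), and the median was 0.09. The 2 tested X-linked members, Rpl39 and Rps4x, had log2 fold changes of 0.05 and -0.08.

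The spread over the 6 libraries, in SD of log2(cpm + 0.1), was among the smallest for Rps27a (0.06) and Rpl8 (0.07) and largest for Rpl5 (0.59), Rpl17 (0.43) and Rpl27 (0.35). The last 3 are all rows with under 11% of their family's mean signal. The median SD of the members was 0.14, beside a median of 0.16 over genes within 1.5-fold of each member's level, and 49 of the 84 members lay below the median of such genes.

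Paralogue and retrocopy levels, relative to the parent, varied widely between pairs. Rpl7l1, a paralogue of Rpl7, had 23.8, 30.1 and 42.7 cpm against 31.9, 30.6 and 34.5 cpm, or 13.4% ± 3.20 and 14.1% ± 2.06 (SD, n = 3 each) of the pair. Rpl7 had 212, 193 and 216 cpm against 190, 225 and 180 cpm. Rps27l, a paralogue of Rps27 known as a p53 target, had 19.5, 16.2 and 22.8 cpm against 18.1, 18.9 and 15.9 cpm (log2 fold change -0.13, limma adjusted p = 0.954). Neither pair differed beyond the spread.

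Rpl36al, a paralogue of Rpl36a, had 83.3, 94.6 and 118 cpm against 90.05, 109 and 105 cpm, while Rpl36a itself had 4.33, 0.882 and 2.37 cpm against 1.72, 4.64 and 1.81 cpm. Rpl36a-ps1, listed as protein-coding, held 103, 89.4 and 107 cpm against 97.4, 102 and 102 cpm. Rpl9-ps6 averaged 114 ± 10.2 and 125 ± 17.6 cpm (SD, n = 3 each) and Rpl9 40.0 ± 9.29 and 40.6 ± 11.1 cpm (SD, n = 3 each). Rps18 had 74.9, 69.1 and 97.3 cpm against 94.4, 109 and 88.8 cpm (log2 fold change 0.28, limma adjusted p = 0.829; from 0.18 to 0.43 with 1 library left out, past the nominal threshold without the third *Cnr1*+/+ library only), and Rps18-ps5 had 114, 102 and 129 cpm against 97.7, 116 and 116 cpm (log2 fold change -0.07, limma adjusted p = 0.963). Both overlapped between genotypes. Rps4l, a pseudogene beside the X-linked Rps4x, had between 12.7 and 23.2 cpm per library and thus 4.27% to 8.10% of the pair, and Rpl3 had 129 cpm and Rpl39 198 cpm on average beside the very low Rpl3l and Rpl39l.

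Rpl10-ps3, Rpl9-ps6, Rpl36a-ps1 and Rps18-ps5 are listed as protein-coding and are members. The other rows named as ribosomal protein pseudogenes are not members. Of 39 tested, 4 were higher and 1 lower at the nominal threshold (12.8%, beside 6.02% of all tested genes), and their log2 fold changes had a median of 0.14. Rpl18-ps2 had 12.2, 11.7 and 24.3 cpm in *Cnr1*+/+ and 27.9, 34.1 and 27.8 cpm in *Cnr1*-/- libraries (log2 fold change 0.97, limma adjusted p = 0.236). Rpl7-ps7 (0.87), Rps12-ps4 (0.44) and Rpl38-ps2 (0.36) were the other higher rows, and Rpl18-ps1 (-0.59) the lower one. The most abundant were Rps23-ps1 and Rpl17-ps8, with 216 and 196 cpm. None passed an adjusted p of 0.1.

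Other genes of the translation machinery passed the nominal threshold at shares near the 6.02% of all tested genes. Of 22 tested genes with TOP mRNAs or products on the ribosome, 1 was higher and none lower (4.55%), with a median of 0.07. This was Snhg1, a host gene of small nucleolar RNAs, with 13.2, 13.8 and 19.7 cpm against 19.9, 21.3 and 21.8 cpm (log2 fold change 0.45, limma adjusted p = 0.825). The elongation factor Eef1a1 averaged 569 ± 62.8 and 569 ± 33.8 cpm, and Tpt1, a translationally controlled protein, 564 ± 37.6 and 621 ± 62.3 cpm (SD, n = 3 each). Of 26 tested ribosome biogenesis genes 1 was higher and 1 lower (7.69%). Nop2, a methyltransferase of the 28S ribosomal RNA, had 12.5, 16.3 and 13.6 cpm against 19.2, 21.4 and 19.9 cpm (log2 fold change 0.52, limma adjusted p = 0.792). Polr1c, a subunit shared by RNA polymerases I and III, had 14.7, 9.98 and 16.3 cpm against 7.47, 10.3 and 9.06 cpm (log2 fold change -0.59, limma adjusted p = 0.821). The most abundant, nucleolin (Ncl) and Taf1d, lay at 0.05 and 0.07.

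Of 11 tested regulators of ribosomal protein mRNA in the mTOR, Larp1, Myc and Yy1 axis, none passed, and the median was 0.11. Larp1, which binds TOP mRNAs, had 81.9, 81.9 and 87.2 cpm against 85.2, 100 and 105 cpm (log2 fold change 0.20, limma adjusted p = 0.885), and Rptor, the mTOR complex subunit, lay at -0.04. Of the 48 tested mitochondrial ribosomal protein genes none passed the nominal threshold, their median was 0.14, and 5 (10.4%) were higher without overlap, beside 8.85% of all tested genes. Mrps15, among the most abundant, had 27.0, 26.5 and 27.6 cpm against 31.0, 35.7 and 36.6 cpm (log2 fold change 0.34, limma adjusted p = 0.825). Mrpl52 and Mrpl24, the most abundant large subunit genes of that ribosome, had log2 fold changes of -0.16 and 0.09.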

How the data were processed

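The authors trimmed 3′ mRNA reads of 50 bases, aligned them to mm10 with STAR, quantified them per gene with the Partek expectation-maximisation algorithm against Ensembl transcripts and normalised them with TMM, per the study's methods. The deposited values are CPM with that scaling. Between 82.1% and 84.8% of values above 0 were whole multiples (within 0.01 reads) of the value of 1 read, too few for count tests. Effective depths were derived from that value. Genotypes, taken from the labels, were compared with limma 3.58.1 in R 4.3.3 (lmFit, eBayes with trend, genotype as only term, Benjamini-Hochberg adjustment) on log2(CPM + 0.1) over all genes with a mean of at least 10, after a check on simulated data. Fold changes are on that scale, which understates changes of low genes. Exact permutation tests were two-sided.

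Copies were found with BLAST+ 2.17.0 on 1 GENCODE vM21 transcript per member, as listed genes elsewhere in the genome with at least 95% identity over at least 50% of the transcript or 300 bases. Rps18-ps5 had no transcript there under that name. Sequences came from RefSeq (GRCm38.p6).

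The members and lists were chosen with earlier results of these data known. Named genes are the 5 most abundant per subunit, members with nominal p under 0.05, the 3 largest and 3 smallest SDs, paralogues with their parents, untested members, and chosen landmarks (Rplp0, Rplp1, Rplp2, Rpsa, Fau, Rps27a, Rps6, Rpl5, Rpl11). From the other lists they are members with nominal p under 0.05 and the 2 most abundant. Others are marked where named or are the copies of these genes. Alternatives covered pseudocounts, filters, scalings, eBayes without trend, vooma weights, a replicate block and each library left out. Sums with copies were added after seeing the data. Protein identities were not analysed here, and 1 gene that this rule names is not reported here.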

Additional observations from a re-analysis of the deposited data

How the results depend on the processing

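Under 12 alternative filters, scalings and fits, between 1 and 3 members passed the nominal p of 0.05, and none passed an adjusted p of 0.1. With a minimum mean of 20 CPM the count was 1, because Rpl5 and Rpl17 were then not tested. Leaving out 1 library gave between 1 and 3 members at the nominal and between 0 and 1 at the adjusted threshold. The lowest came without the first *Cnr1*-/- library, and the 1 adjusted call, Rpl5 (limma adjusted p = 0.0595), came without the first *Cnr1*+/+ library. The median log2 fold change over all tested members ran from -0.01, without the second *Cnr1*-/- library, to 0.11 over the libraries left out. Of 1505 single member values under these alternatives, 1456 kept their side of the threshold or moved by less than the spread, 36 moved by more, 11 fell below the threshold, 2 newly passed it and 0 reversed.

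Summed with copies, the log2 fold change of Rpl17 reversed to 0.0257 at 95% and 0.00867 at 90% identity, and 2 and 1 members passed, respectively. Leaving out 1 library gave between 0 and 5 at 95%: 5 without the third *Cnr1*+/+ library, 0 without the second of either genotype and 1 without each of the others. The difference in log2 ratio of large to small subunit sums, 0.000605 as reported, was 0.0244 without the 5 most abundant members of each subunit. The cause was not tested.

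With the replicate number as a block, 3 members passed, none at the adjusted threshold, and the members' median stayed at 0.04. Same-numbered libraries of the genotypes did not deviate together (r = -0.06, -0.03 and -0.03 across genes), which gave no sign of pairing by number. Whether some libraries shared a litter or a preparation was not tested. At a 3-read limit of 0.280 to 0.389 CPM, the libraries that list Rpl3l or Rpl39l at 0 allow a level up to that limit.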
